A study of Saccharomyces cerevisiae with 9 samples.

Results

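YLK804 and YLK806 are 2 strains of the budding yeast Saccharomyces cerevisiae that differ in genetic background but not in mating type or in the loss of URA3. They were taken by strain name from the array labels, and their arrays make up 2 of the 9 arrays of the series. YLK804 was built in BY4724, of the laboratory background, and carried the SAL1 allele of RM11-1a. YLK806 was built in RM11-1a, derived from a vineyard isolate, and carried the SAL1 allele of the laboratory background. From its known genotype, BY4724 is a mating type a strain deleted for LYS2 and URA3. By its known genotype RM11-1a is a mating type a strain without LEU2, URA3 and HO. LYS2, LEU2, HO and the SAL1 allele therefore differed between the strains, together with the rest of the genome. Both grew in YNB minimal medium with 20 g/L glucose, 100 mg/L leucine, 100 mg/L lysine and 20 mg/L uracil.

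The parents of the series served as a yardstick, BY4716 (laboratory background, mating type alpha, URA3 present) and RM11-1a, with 3 arrays each in the same medium. BY4716 also had low LYS2, at -3.31 to -3.02 on its arrays. The remaining array held YAD350, a MKT1 replacement strain in the laboratory background BY4742, which also received 20 mg/L histidine and had low HIS3 (-4.20), LEU2 (-3.16), LYS2 (-3.16) and URA3 (-2.89). Each strain's RNA was set against a common reference, a pool of RNA from both parents grown on glucose and on ethanol. A level below is the log2 ratio of strain over reference, and a difference is YLK804 minus YLK806, so a positive value means more signal in YLK804. A gene that is missing from a strain, or differs in sequence from its probe, also gives less signal. Such cases were not separated from lower transcript levels. Total RNA of whole cultures was measured, so fewer cells with a transcript and less transcript per cell cannot be told apart.

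Laboratory and vineyard strains of this species carry different alleles of many regulators. Known examples are HAP1, which activates respiratory and heme-dependent genes and carries a transposon insertion in laboratory strains of the BY lineage, and AMN1, which acts in daughter cell separation. Yeast in glucose ferments and represses the genes of respiration, storage carbohydrates and alternative carbon sources. Genes near chromosome ends, with their families of near-identical copies, are the least conserved part of the genome between strains.

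With 1 array per strain there was no replicate of either strain, and no test of the difference was made. For these arrays the source names put the strain in Cy5 and the characteristics put it in Cy3. They were read with the strain in Cy5, since YLK804 then correlated across genes with BY4716 at r = 0.879 and with RM11-1a at 0.506, and YLK806 with RM11-1a at 0.886 and with BY4716 at 0.402. The arrays were scanned on the same day on different slides, and no parental array was scanned on that day. In the strain channel 5872 of 6256 genes were well above background for YLK804 and 5746 for YLK806. The reference channel itself differed by at least 2-fold between the arrays for 136 genes, 132 of them brighter with YLK804, and this difference is given where it was large for a named gene.

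Of the 5863 genes compared, 342 (5.83%) differed by at least 2-fold. Of these, 112 (1.91%) were higher in YLK804 and 230 (3.92%) were higher in YLK806. The counts for each gene list below are to be read against these shares of all genes. The median difference over all genes was 0.0041 with an SD over genes of 0.564. Pairs of arrays of the same parent had 0 to 25 genes at least 2-fold apart, at most 0.427%, and each of the 342 genes differed by more than the largest gap between arrays within either parent for that gene. When the strain channel was read alone, 242 genes were higher in YLK804 and 239 in YLK806, so the split between directions depends on whether the reference channel is used. The largest differences in each direction are shown in the plot of the 24 genes farthest apart.

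**Figure D1:**
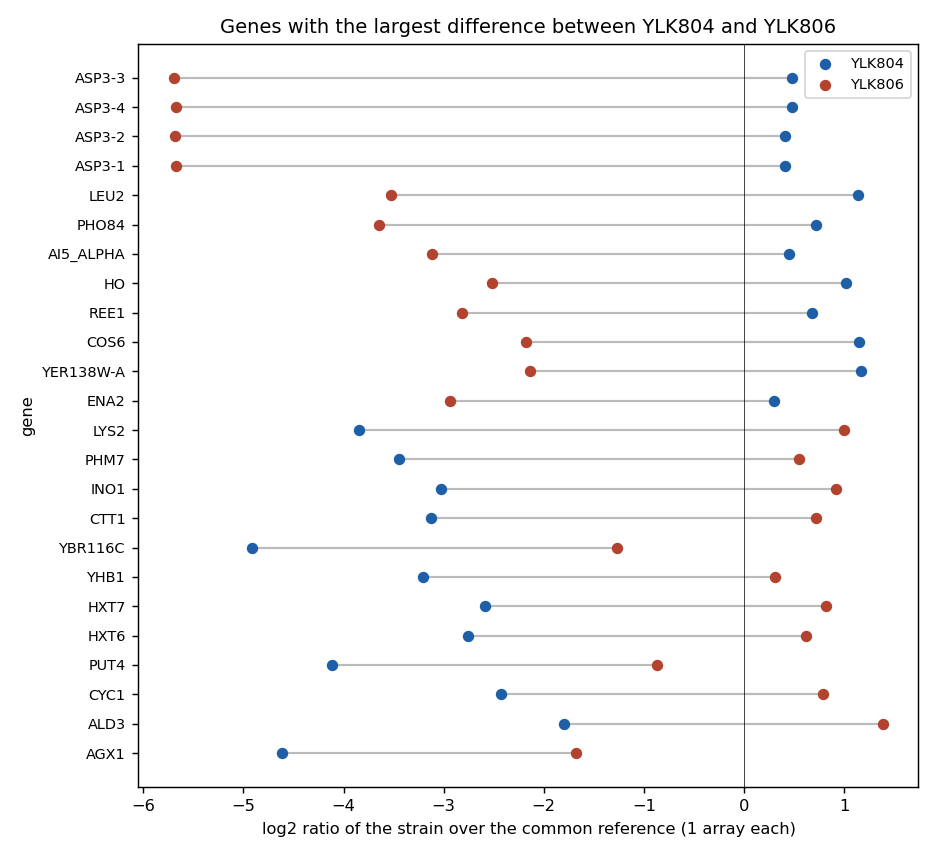
Log2 ratio over the common reference on the YLK804 array (blue) and the YLK806 array (red) for the 12 genes highest and the 12 lowest in YLK804 against YLK806. The 4 ASP3 copies lie near -5.7 with YLK806, and LYS2, at -3.84, separates YLK804 from YLK806 at 1.00.

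The marker genes followed the genotypes. LYS2, an enzyme of lysine synthesis, was at -3.84 in YLK804 and at 1.00 in YLK806, a difference of -4.85. LEU2, an enzyme of leucine synthesis, was at 1.14 in YLK804 and at -3.53 in YLK806, where it was not well above background. The ratios differed 25.4-fold, and the strain channel alone gave at least 29.96-fold. "At least" sets the brighter array against the lowest signal counted as above background, or the dim probe's own signal where that is higher. It is a bound on the strain channel alone, read in Cy5 on both arrays, so the reference corrects no difference between spots. No dyes were swapped. The bound can lie above the fold of the ratios, which also hold the reference channel. HO, the endonuclease of mating type switching, was at 1.02 in YLK804 and at -2.52 in YLK806, an 11.6-fold difference of ratios and at least 12.5-fold in the strain channel alone. URA3 was low in both strains, at -3.47 and -3.04, against 1.35 to 1.40 on the BY4716 arrays and -2.63 to -2.42 on the RM11-1a arrays. HIS3, intact in both, differed by 0.09.

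The mating type genes placed both strains with mating type a. STE2, the alpha-factor receptor of a cells, was at 1.37 in YLK804 and 1.52 in YLK806, against -3.52 to -3.24 in BY4716. STE3, the a-factor receptor of alpha cells, was at -3.49 and -3.42, and MF(ALPHA)1, the main alpha-factor gene, was at -5.02 and -5.01. All 4 alpha-specific genes examined differed by less than 2-fold between the strains, from -0.57 for MF(ALPHA)2, which was above background on neither array, to -0.01. Among the 7 a-specific genes only MFA1, an a-factor gene, differed by at least 2-fold, at 3.12 in YLK804 and 0.65 in YLK806. Its level in YLK804 was above that of every RM11-1a array, which lay between 0.78 and 0.86. MFA2, the other a-factor gene, was at 1.61 and 0.79, ASG7, an a-specific membrane protein gene, at 1.62 and 0.79, and BAR1, a protease that degrades alpha-factor, at 2.37 and 1.67. STE6, the a-factor exporter, and AGA2, an agglutinin subunit, each differed by 0.25, and STE2 by -0.15.

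**Figure D2:**
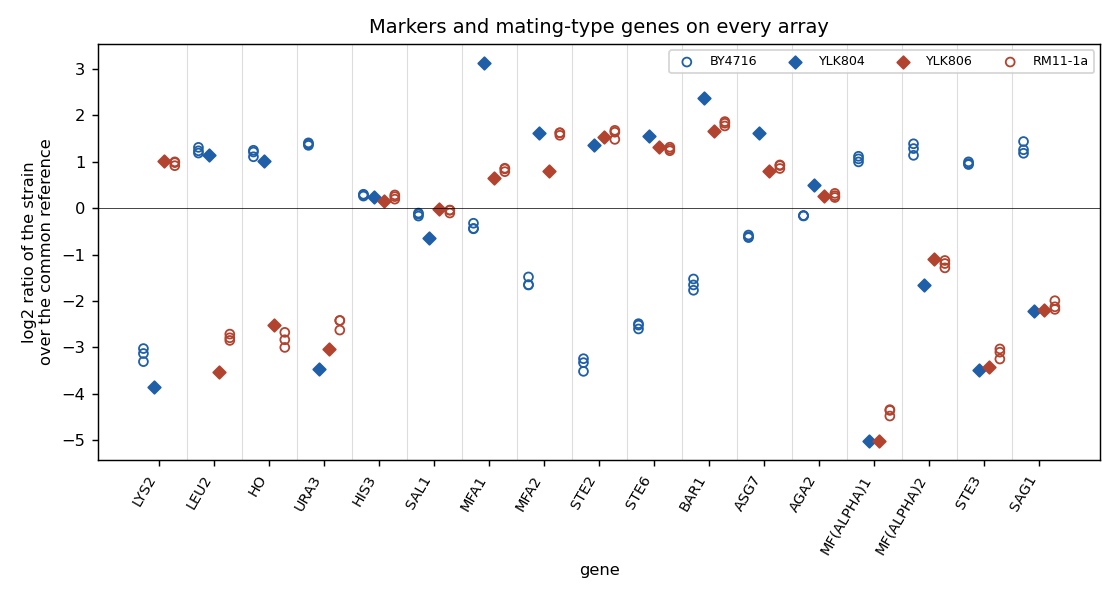
Log2 ratio over the common reference on every array of BY4716 and RM11-1a (open circles), and of YLK804 and YLK806 (filled diamonds), for marker, SAL1 and mating type genes. URA3 and the mating type genes set both a strains beside RM11-1a, LYS2, LEU2 and HO divide them by background, and MFA1 in YLK804 stands above all other arrays at 3.12.

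Some transcripts beside the deleted markers also differed, while most neighbours examined were within 2-fold. Beside HO, GCS1 differed by 0.73, SHS1 by 0.09, SSB1 by -0.02 and PTP1 by -0.0007. CYC8, RAD16 and TEF2 near LYS2 differed by 0.15, -0.17 and 0.17, and KCC4 and DCC1 near LEU2 by 0.005 and -0.25. GEA2, PXP1 and YEL023C near URA3 differed by 0.43, -0.28 and 0.18. TKL2, a transketolase gene next to LYS2, was at -3.80 in YLK804 and -1.02 in YLK806, and YBR116C, whose systematic name places it between them, was at -4.91 and -1.27. BY4716, also low in LYS2, averaged -3.30 for TKL2 and -4.81 for YBR116C, and RM11-1a averaged -1.48 and -1.86. The small gene YCL021W-A beside LEU2 was higher in YLK804 by 1.52, and NFS1, the cysteine desulfurase gene on the other side, lower by -0.76. TIM9, a chaperone of the mitochondrial intermembrane space that lies next to URA3, was at -1.54 in YLK804 and 0.21 in YLK806, although both strains lack URA3. TIM9 averaged -0.30 in BY4716 and 0.24 in RM11-1a, and was at -1.12 in YAD350, which also had low URA3 at -2.89. Whether these differences came from a deletion beside the gene or from the background was not tested. SAL1, which encodes a mitochondrial carrier of adenine nucleotides, was at -0.65 in YLK804 and -0.03 in YLK806, a difference of -0.62 against -0.07 ± 0.04 (SE, 3 arrays each) between the parents, and SWS2 beside it differed by -0.60, END3 by 0.11 and PMS1 by 0.23.

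Genes of respiration formed the broadest block of difference, with lower levels in the laboratory background. Of 41 nuclear genes of oxidative phosphorylation, 34 were at least 2-fold higher in YLK806 and 1 was higher in YLK804, and the list's median difference was -1.37 where all genes had 0.0041. Without COX5A, whose reference channel differed more than its strain channel, 33 were higher in YLK806. The pattern held in each complex. All 4 genes of succinate dehydrogenase were at least 2-fold lower in YLK804, with a median of -1.56, as were 8 of 9 of the cytochrome bc1 complex (median -1.42), 11 of 14 of ATP synthase (median -1.18) and all 3 NADH dehydrogenases (median -1.70). Cytochrome c oxidase had 7 of 9 genes lower and 1 higher. CYC1, the main cytochrome c, was at -2.43 in YLK804 and 0.78 in YLK806, a 9.27-fold difference. SDH1, the flavoprotein of succinate dehydrogenase, was at -3.01 and -0.86, and RIP1, the Rieske iron-sulfur protein, at -2.12 and -0.16. Each of these differences exceeded the largest gap between arrays within a parent, which was 0.75, 0.89 and 0.64.

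The alternative subunits of cytochrome c oxidase went opposite ways. COX5B, the form used when oxygen is low, was at 1.21 in YLK804 and -0.15 in YLK806, a difference of 1.35. COX5A, the aerobic form, was at -2.28 and -0.17 as a ratio, a difference of -2.11 against -1.80 ± 0.09 between the parents. For COX5A the reference channel was 3.17 brighter on the log2 scale with YLK804, and the strain channel alone gave 1.06, the opposite sign, so its value depends on whether the reference is used. NDE1, the external NADH dehydrogenase, differed by -1.996 as a ratio and by -1.02 in the strain channel alone. CYC7, the cytochrome c made in low oxygen, was lower in YLK804 by -0.81, less far apart than CYC1.

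The mitochondrial translation machinery was mostly lower in YLK804, and few of its genes passed 2-fold. All 72 genes of the mitochondrial ribosome list had negative differences, between -1.57 and -0.23 with a median of -0.67, and only 4 passed 2-fold. MRPL39 was lowest at -1.57, then MRPS9 at -1.20, KGD4 at -1.07 and MRPL31. KGD4, listed here under an older name for a ribosomal protein, is a subunit of ketoglutarate dehydrogenase and not of the ribosome. Of 50 genes of mitochondrial translation and assembly, 44 were lower in YLK804, with a median of -0.43 and 5 past 2-fold, among them the elongation factor genes MEF2 (-1.19), TUF1 (-1.16) and MEF1 (-1.13).

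Transcripts of the mitochondrial genome, of which 8 were compared, were less uniform. OLI1, an ATP synthase subunit, was at -3.01 in YLK804 and -0.48 in YLK806. COX2, a cytochrome c oxidase subunit, was not well above background in YLK804 and was at least 4.78-fold higher in YLK806, while ATP8 was not well above background in YLK806 and at least 1.64-fold higher in YLK804. The intron reading frame AI5_ALPHA, which lies within COX1, was at 0.45 in YLK804 and not well above background in YLK806, a difference of at least 9.74-fold, and COX1 itself was higher in YLK806 by 2.03-fold.

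In the citric acid cycle 16 of 20 genes were lower in YLK804, with a median of -0.51, but only MDH1, mitochondrial malate dehydrogenase, at -1.53, and KGD2, a ketoglutarate dehydrogenase subunit, at -1.33, passed 2-fold. CIT2, the peroxisomal citrate synthase, went the other way, at -3.00 in YLK804 and -4.49 in YLK806. Of 29 mitochondrial carriers 6 were at least 2-fold lower in YLK804, where 3.92% of all genes were, and none was higher by that much. They included OAC1, which carries oxaloacetate and a leucine precursor (-1.80), PET9, the main ADP/ATP carrier (-1.71), and MIR1, the phosphate carrier (-1.32). AAC3, the ADP/ATP carrier of low oxygen, was at 0.75 in YLK804 and -0.08 in YLK806, a difference under 2-fold.

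Heme-dependent genes and targets of Hap1 were mostly lower in YLK804. Of 24 genes, 10 were at least 2-fold lower and 2 were higher, with a median of -0.85. Without COX5A and HAP1, whose reference channel differed more than the strain channel, these were 9 and 1. YHB1, a flavohemoglobin that removes nitric oxide, was at -3.21 in YLK804 and 0.31 in YLK806, and CYB2, the lactate dehydrogenase cytochrome b2, at -1.90 and 0.78. HMG1, a hydroxymethylglutaryl-CoA reductase of the sterol pathway, was at -1.08 and 0.42, and HEM1, the enzyme that starts heme synthesis, differed by -1.15. The 2 higher genes were COX5B and HAP1 itself, at 0.06 in YLK804 and -1.19 in YLK806, of which 0.62 was seen in the strain channel alone. Several members of this list are also in the respiration and stress lists. In the ergosterol list of 32 genes 24 were lower in YLK804, with a median of -0.39, and 3 passed 2-fold, HMG1, CYB5 (-1.34) and ERG28 (-1.05). AUS1, a sterol importer, was higher in YLK804 by 1.14. TIP1, a cell wall mannoprotein of the anaerobic list, was higher in YLK804 by 1.66, and SCM4, an outer mitochondrial membrane protein in the same list, was at -1.45 and 1.40.

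Genes of the environmental stress response were lower in YLK804. Of 38 genes, 21 were at least 2-fold lower and 1 was higher, and the median was -1.20. Without PHM7 and YGP1, whose reference channel differed more than the strain channel, 19 were lower. CTT1, the cytosolic catalase, was at -3.13 in YLK804 and 0.72 in YLK806, a 14.4-fold difference that exceeded a largest gap of 1.28 within a parent. ALD3, an aldehyde dehydrogenase, was at -1.80 and 1.39, RTN2, a reticulon, at -2.51 and 0.41, and HSP12, a small membrane stress protein, at -2.50 and -0.13. HSP26, a small heat shock chaperone, was the exception, at -1.95 in YLK804 and -3.15 in YLK806. PHM7 had the largest ratio difference of the list at -3.99, but the reference channel was 3.09 brighter with YLK804 and the strain channel alone gave -0.90. For YGP1, a secreted glycoprotein, the ratio gave -1.84 and the strain channel alone 1.56, again with a brighter reference, by 3.40.

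The chaperones as a whole did not follow the stress list. Of 32 heat shock proteins and chaperones, 3 were at least 2-fold lower in YLK804 (HSP12, HSP31 at -1.63 and HSP42 at -1.05) and HSP26 was higher, with a list median of -0.08. Among 27 genes of oxidative stress defence 5 were lower by 2-fold, CTT1, YHB1, the mitochondrial superoxide dismutase gene SOD2 (-1.62), TSA2 (-1.58) and TRX3 (-1.18), and the median was -0.35.

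Storage carbohydrate genes were lower in YLK804 by a median of -0.77 over 21 genes, of which 8 passed 2-fold and none was higher by that much. GPH1, glycogen phosphorylase, was at -1.27 in YLK804 and 0.73 in YLK806. TPS2, which completes trehalose synthesis, was at -0.73 and 0.66, and PGM2, phosphoglucomutase, at -0.79 and 0.59. In the pentose phosphate pathway the 5 genes past 2-fold were all lower in YLK804. GND2, NQM1 and TKL2, minor forms of the dehydrogenase, transaldolase and transketolase, differed by -2.90, -2.87 and -2.78, and SOL3 and SOL4, lactonases, by -1.27 and -1.20. The other 8 genes of the pathway were within 2-fold.

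**Figure D3:**
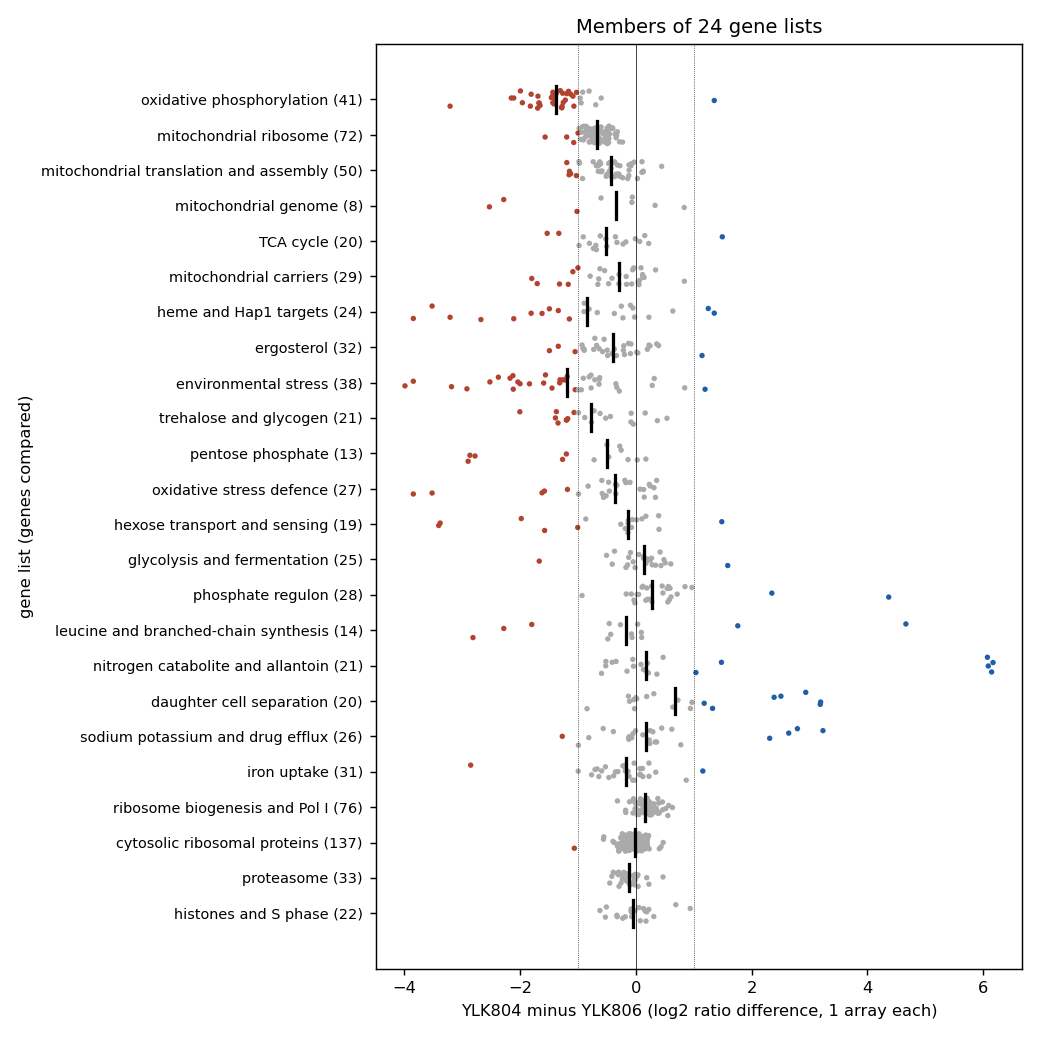
Difference YLK804 minus YLK806 (log2) for each member of 24 gene lists, with the number of genes compared in brackets, the list median as a black bar, and genes past 2-fold in blue (higher in YLK804) or red (higher in YLK806). Oxidative phosphorylation (median -1.37) and environmental stress (-1.20) have medians past 2-fold, all 72 members of the mitochondrial ribosome list lie left of 0, and daughter cell separation has the highest median of the lists plotted, 0.68.

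Sugar entry and phosphorylation also differed by gene. Of 19 hexose transporters and sensors 5 were at least 2-fold lower in YLK804 and 1 was higher. HXT7 and HXT6, near-identical high-affinity transporters whose probes may share signal, were at -2.59 and -2.76 in YLK804 and at 0.82 and 0.62 in YLK806. HXT5 differed by -1.98, HXT2 by -1.58 and HXT4 by -1.01. HXT1, the low-affinity transporter of high glucose, was higher in YLK804, by 1.48. The hexokinases split in the same direction, HXK1 at -0.76 and 0.91 and HXK2, the form of cells rich in glucose, at 0.91 and -0.67. No other of the 25 genes of glycolysis and fermentation passed 2-fold, and the sign of that list's small median of 0.13 was negative, at -0.0013, in the strain channel alone.

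ADR1 and CAT8, activators of glucose-repressed genes, were lower in YLK804, by -1.38 and -1.07, and 17 of 18 genes of the glyoxylate and gluconeogenesis list were lower, with a median of -0.52. That median became 0.32 when the log ratios were scaled between arrays, so the direction for the list depends on the scaling. The glycerol genes GCY1 (-1.52 in YLK804 and 0.63 in YLK806) and GUT2 (-2.42 and -1.06) were lower in YLK804. MAL33 and MAL31, a maltose regulator and a maltose transporter, differed by -1.98 and -1.76, and the isomaltase gene IMA1 by -1.17. POT1 and POX1, enzymes of fatty acid oxidation, differed by -1.79 and -1.51, and the remaining 25 genes of the peroxisome list were within 2-fold.

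PHO84, the high-affinity phosphate transporter, stood far apart from the rest of its regulon. It was at 0.72 in YLK804 and -3.65 in YLK806, a 20.7-fold difference. SPL2, a regulator of low-affinity phosphate uptake, was at 0.67 in YLK804 and not well above background in YLK806. Its ratios differed 5.10-fold, and the strain channel alone gave at least 5.29-fold. No other of the 28 phosphate genes passed 2-fold, though 23 were higher in YLK804, with a median of 0.27. PHO5, the repressible acid phosphatase, was higher by 0.97. Between the parents 6 of these 28 genes were at least 2-fold higher in BY4716.

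INO1, which makes inositol phosphate for phospholipid synthesis, was at -3.02 in YLK804 and 0.92 in YLK806, a 15.4-fold difference. OPI3, a phospholipid methyltransferase, was the other member of the phospholipid list past 2-fold, at -1.06, and the list's median of -0.21 was small.

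In leucine and branched-chain synthesis the strain without LEU2 had more LEU1, the isomerase of the preceding step, at 1.35 in YLK806 and -1.46 in YLK804. BAT1, the mitochondrial branched-chain aminotransferase, was at 1.23 in YLK806 and -1.06 in YLK804, while BAT2, its cytosolic counterpart, was higher in YLK804 by 1.76. Of 14 genes in the list, 3 were at least 2-fold higher in YLK806 (LEU1, BAT1 and OAC1) and 2 in YLK804 (LEU2 and BAT2). YAD350, of laboratory background but with LEU2 at -3.16, had LEU1 at 0.60, BAT1 at 0.57 and OAC1 at 1.07, where BY4716 averaged -1.56, -1.03 and -0.50, and BAT2 at -0.15, where BY4716 averaged 0.24. LEU1, BAT1 and OAC1 were thus high on the arrays with low LEU2 of either background, while BAT2 in YAD350 was nearer to BY4716 than to YLK806. YAD350 also differed from BY4716 in HIS3 and URA3, in the MKT1 allele and in added histidine, and the cause was not tested. The 9 other genes of lysine synthesis were all within 2-fold in the strain without LYS2.

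Nitrogen genes differed mainly through the ASP3 cluster. The 4 ASP3 copies, which encode a secreted asparaginase and are near-identical, so that their probes may share signal, were at 0.41 to 0.48 in YLK804 and at -5.69 to -5.67 in YLK806, differences of 6.08 to 6.17 and the largest of all genes compared. ASP1, the cytosolic asparaginase, was higher in YLK804 by 1.04. Among 32 amino acid and nitrogen permeases 5 were at least 2-fold higher in YLK804 and 2 lower, where 1.91% and 3.92% of all genes were. TAT1, a transporter of tyrosine and branched-chain amino acids, was at -0.43 in YLK804 and -2.69 in YLK806, GAP1, the general amino acid permease, at -1.06 and -2.55, and DUR3, a urea transporter, at -0.70 and -2.18. PUT4, the proline permease, was at -4.11 in YLK804 and -0.86 in YLK806, and BAP2, a branched-chain permease, differed by -1.08.

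Other loci known to vary in copy number between strains were likewise far apart. The sodium pumps ENA2, ENA1 and ENA5, near-identical in sequence, were at 0.30, -0.11 and 0.69 in YLK804. In YLK806, ENA2 and ENA1 were at -2.94 and -2.75 and ENA5 was not well above background, at least 4.67-fold lower. QDR2, a drug exporter outside that cluster, was at 1.03 and -1.76, and PDR15, another drug exporter, was lower in YLK804 by -1.27. Of 32 genes in variable loci, 10 were at least 2-fold higher in YLK804, with each near-identical ASP3 copy counted, and 7 in YLK806. REE1, AGX1 and YER138W-A were named for the size of their differences, and their copy number was not examined. REE1 was not well above background in YLK806. Its ratios differed 11.3-fold, and the strain channel alone gave at least 11.6-fold. AGX1, alanine-glyoxylate aminotransferase, was lower in YLK804, at -4.61 against -1.68. YER138W-A was at 1.17 and -2.13, with the reference channel dimmer by -1.06 with YLK804.

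Chromosome ends held more than their share. Genes were ranked by order from each chromosome end in the R64 annotation, which served only for order because the array files name no genome build. Of 320 genes among the outermost 10 of an end, 39 (12.2%) were at least 2-fold higher in YLK804 and 20 (6.25%) in YLK806, and elsewhere these were 64 of 5218 (1.23%) and 201 (3.85%). The 8 copies of YRF1, the helicase gene of the Y' elements, were at 0.49 to 0.65 in YLK804 and -2.24 to -1.73 in YLK806. All 8 are counted among the 39. They were picked after their values were seen, and near-identical copies can share signal, so they do not count as separate observations. COS6, of a subtelomeric membrane protein family, was at 1.15 and -2.17. COS8 was at 1.49 in YLK804 and not well above background in YLK806, at least 4.15-fold lower, and the other 9 COS genes were within 2-fold.

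COS8 and YIR043C, an unnamed gene chosen after its values were seen, did not match the laboratory parent. COS8 averaged 0.18 in BY4716 and was at 1.61 in YAD350. YIR043C was at 1.49 in YLK804 and 1.73 in YAD350 but 0.23 to 0.27 in BY4716, and was not well above background in YLK806, with a difference of 2.21. Both were thus higher on the arrays of BY4724 and BY4742 derivatives than on those of BY4716.

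Genes of daughter cell separation were higher in YLK804. Of 20 genes 7 were at least 2-fold higher and none lower by that much, with a median of 0.68. DSE1 and DSE2, daughter-specific proteins, were at 0.70 and 1.02 in YLK804 and at -2.50 and -2.17 in YLK806. CTS1, the endochitinase that cleaves the septum, was at 0.87 and -2.06, SUN4, a septation protein, at 1.07 and -1.44, and SCW11, a glucanase-like wall protein, at 0.57 and -1.82. DSE4, an endoglucanase, was higher by 1.18, and AMN1 was at 0.54 in YLK804 and -0.79 in YLK806.

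Cell wall proteins outside the septum tended the other way, with 6 of 30 at least 2-fold lower in YLK804 and 2 higher, around a median of -0.22. YGP1, with the opposite sign in the strain channel alone, is among the 6, and 5 remained without it. CWP1, a mannoprotein, was at -1.07 and 0.78, PIR3 at -1.40 and 0.25 and SED1 at -1.22 and 0.10. UTR2, a chitin crosslinking enzyme, was higher in YLK804, by 1.09. PRM5, a membrane protein gene that answers to pheromone and wall stress, was at 0.91 and -1.33, in a list of 25 pheromone response genes with a median of 0.28. FUS1, a cell fusion gene, was higher in YLK804 by 1.02, and PRM10 lower by -1.35.

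Growth-related lists showed little. None of 76 genes of ribosome biogenesis and RNA polymerase I passed 2-fold, though 65 were higher in YLK804, with a median of 0.16. Of 137 cytosolic ribosomal protein genes only RPS17B passed, at -1.06, and the median was -0.02, with a sign that turned when arrays were centred on the median without loess. No gene passed 2-fold among 33 of the proteasome, 22 histone and S phase genes, 23 of thiamine and pyridoxine, 7 of histidine synthesis and 10 flocculin genes. In other amino acid synthesis, ARG7 alone of 47 genes passed, at 1.09, MET13 alone of 35 sulfur genes, at -1.15, and IMD2 alone of 20 purine genes, at -1.13.

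The difference between the a strains, which share mating type and the loss of URA3, was then set beside the parental difference, where both differ. LYS2, LEU2 and HO differed in both comparisons, by -4.12, 4.03 and 4.02 between the parents. Between BY4716 and RM11-1a 3696 of 5865 genes (63%) passed limma's test with a Benjamini-Hochberg adjusted p under 0.05, of which 1755 (29.9%) were higher in BY4716 and 1941 (33.1%) in RM11-1a. With at least a 2-fold difference as well there were 335 (5.71%), 115 (1.96%) higher in BY4716 and 220 (3.75%) in RM11-1a. Whether the 3 arrays of a parent came from separate cultures is not labelled, and the spread behind that test may be technical. Of 334 such genes with values in both comparisons, 268 were at least 2-fold apart in the same direction between YLK804 and YLK806, which is 80.2% of the parental genes and 78.4% of the 342. A further 48 kept the direction under 2-fold, 15 had the opposite direction under 2-fold, and 3 were opposite and past 2-fold. Across the 5863 genes, which are not independent, the differences had r = 0.884, rho = 0.889 and a slope of 0.89 on the parental difference. The arrays were separate, but all were set against a common reference. BY4716 replicate 9 and RM11-1a replicate 9, the only parental pair scanned on a shared day, gave 114 and 225 genes past 2-fold.

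**Figure D4:**
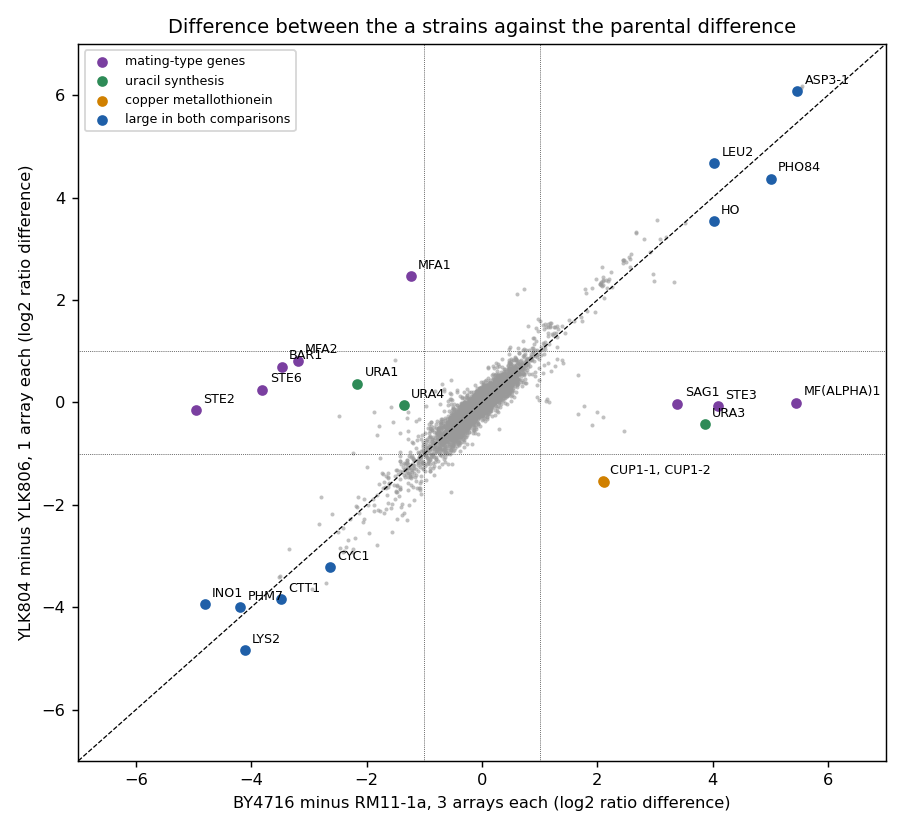
Difference between YLK804 and YLK806 (1 array each) against the difference between BY4716 and RM11-1a (3 arrays each), both as log2 ratio differences, for 5863 genes; dotted lines mark 2-fold and the dashed line equal values. Most genes follow the dashed line, STE2, the alpha-specific genes and URA3 lie far from the dashed line and within 2-fold on the vertical axis, and MFA1 and the CUP1 genes are past 2-fold with opposite signs.

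Of the 66 parental genes that were not past 2-fold in the same direction between the a strains, 14 belonged to the a-specific, alpha-specific and pyrimidine lists, 4 to the phosphate and 4 to the iron list. The 14 were 4 pyrimidine genes with all 6 a-specific and all 4 alpha-specific genes past 2-fold between the parents. Outside these lists the 66 also held MATALPHA1, MATALPHA2, HMLALPHA1, HMLALPHA2, HMRA1 and HMRA2, of the mating type loci. Some others lay just under 2-fold, such as UIP3 at 0.996 and TSL1 at -0.99. STE2 differed by -0.15 between the a strains and by -4.96 ± 0.08 (SE, 3 arrays each) between the parents, MF(ALPHA)1 by -0.01 and 5.45 ± 0.05, and URA3 by -0.43 and 3.87 ± 0.06. HMRA1, the a1 regulator gene, differed by -0.26 and -2.49. URA1, dihydroorotate dehydrogenase, was at 1.47 in YLK804 and 1.11 in YLK806, against -0.83 to -0.72 on the BY4716 arrays and 1.35 to 1.48 on the RM11-1a arrays. URA4, dihydroorotase, was at 0.65 and 0.69, and RIB4, a riboflavin synthesis enzyme, at 0.86 and 0.96, where BY4716 had -0.54 to -0.50 and -0.48 to -0.36. YAD350, which also had low URA3, had URA1 at 1.43, URA4 at 0.53 and RIB4 at 1.07, so the 3 genes were high on every array with low URA3. The cause of this was not tested. URA10, the minor orotate phosphoribosyltransferase, did not group this way, at -1.55 in YLK804, 0.06 in YLK806 and -1.14 to -1.01 in BY4716. FUI1, the uridine permease, lay between, at -0.28 and 0.31, a difference of -0.59 against -1.42 ± 0.08. URA4 and RIB4 were chosen after their values were seen.

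For several copper and iron genes YLK806 lay outside the range of the RM11-1a arrays. CUP1-1, the copper metallothionein, was at -1.09 in YLK804 and 0.45 in YLK806, a difference of -1.54. Between the parents it was 2.09 ± 0.33, with -2.33 to -0.90 in BY4716 and -3.77 to -3.40 in RM11-1a. YLK806 was therefore above every parental array of either background, while YLK804 lay within the BY4716 range. CUP1-2, a tandem copy that shares its signal, differed by -1.55. In the copper and zinc list of 19 genes, ZRT1, a zinc transporter, was also lower in YLK804 by 2-fold, at -1.27, as was INO1, which is no metal gene.

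Of 31 iron uptake genes, 5 were at least 2-fold higher in RM11-1a than in BY4716 and 1 was lower, and between the a strains 1 was higher in YLK806 and 1 in YLK804. The parental count of 5 was 3 to 9 when a parental array was left out. RM11-1a replicate 7 was the highest array for TIS11, FRE1, FRE2 and ARN1, and without it the parental difference of FRE2 was -0.93 in place of -1.78, that of FRE1 -1.27 in place of -1.82 and that of TIS11 -1.22 in place of -1.86. HMX1, heme oxygenase, was the gene higher in YLK806, at -2.90 in YLK804 and -0.04 in YLK806, and ARN2, a siderophore transporter, was the gene higher in YLK804, at least 2.17-fold. TIS11, which promotes decay of transcripts of iron-using proteins when iron is short, was at -2.16 and -1.98, where BY4716 had -1.41 to -0.49 and RM11-1a -0.29 to 2.09. FRE1, a ferric and cupric reductase, was at -0.84 and -0.20, where RM11-1a had 0.19 to 2.29. FRE2, a ferric reductase, was at -1.12 and -0.65 where RM11-1a had -0.12 to 2.66, and the siderophore transporter ARN1 was at -2.53 and -1.53, where RM11-1a had -0.23 to 1.64. For each of these 4 genes YLK806 lay below all RM11-1a arrays, and the RM11-1a arrays themselves spanned 1.87 to 2.78. YLK804 likewise lay below all BY4716 arrays for each of the 4 genes. BY4716 had -0.72 to -0.48 for FRE1, -0.91 to -0.78 for FRE2 and -1.97 to -1.19 for ARN1. TIS11, FRE1 and FRE2 were chosen after their values were seen. Scan day, slide, the SAL1 allele and the culture all differ between YLK806 and the RM11-1a arrays. They also differ between YLK804 and the BY4716 arrays, as do mating type and URA3. The parts of these in the lower values were not tested.

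**Figure D5:**
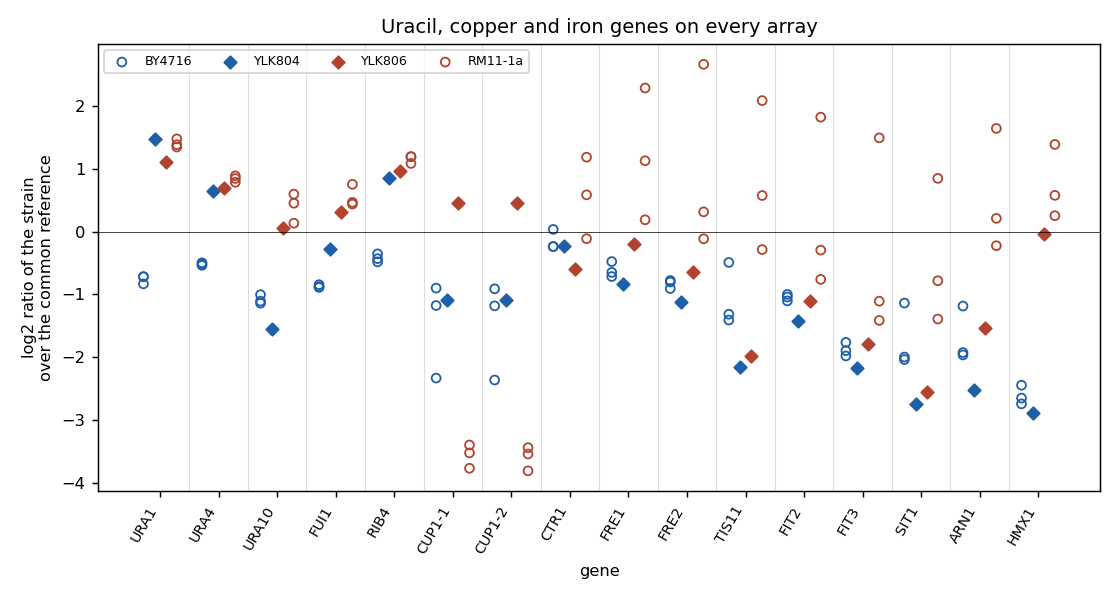
Log2 ratio over the common reference on every array of BY4716 and RM11-1a (open circles), and of YLK804 and YLK806 (filled diamonds), for genes of uracil synthesis, copper and iron. URA1, URA4 and RIB4 are high in both a strains, and the CUP1 genes are highest in YLK806. TIS11 and ARN1 lie below all 3 RM11-1a arrays in YLK806 and below all 3 BY4716 arrays in YLK804.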

How the data were processed

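RNA of YLK804 and YLK806 was compared on 1 array each, with 6 parental arrays as a yardstick. The deposited scanner files hold spot intensities of both channels, read with Agilent Feature Extraction 9.1.3.1 for these strains and 8.5.1.1 for the other 7 arrays, per the file headers, and a log10 ratio made by that software. The log2 ratios deposited by the authors in the series value table matched it within 0.0005. Genome build is not given in the sources used here.

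Intensities were corrected with normexp (offset 50) and loess in limma 3.58.1 under R 4.3.3. Control and outlier spots were left out, and spots of a gene averaged. The offset draws ratios of dim genes toward 0. A gene was kept where at least 3 of 9 arrays showed it well above background in Cy5 or Cy3, which left 5865 of 6256, of which 2 lacked a value on an array of the pair. The number of arrays limits the precision. The R64 annotation matched 5756 of the systematic names.

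For the pair, 49 gene lists are described by counts past 2-fold and medians. Parents were tested with lmFit and eBayes over 5 groups, a fit checked on simulated data. Genes named were the 12 highest and lowest, the 6 with the largest gap to the parental difference each way, 5 per list with the member nearest the median, and the marker, allele, mating type and neighbour genes. Members and lists were chosen with earlier results of these data known. All genes named outside this rule, among them AMN1, HAP1, HEM1, HXT4, ASP1, DSE4, BAP2, UTR2, HMRA1 and those marked as such, were chosen after their values were seen.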

Additional observations from a re-analysis of the deposited data

Results flagged for a closer look

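Of the genes at least 2-fold apart between the parents, 3 were at least 2-fold apart in the opposite direction between YLK804 and YLK806, so that the same contrast of laboratory against vineyard background had opposite signs. The difference between the contrasts was not tested, since each a strain had 1 array. MFA1 differed by 2.47 between the a strains and by -1.23 ± 0.04 (SE, 3 arrays each) between the parents, which differ in mating type. CUP1-1 differed by -1.54 and 2.09 ± 0.33, and CUP1-2, which shares its signal, by -1.55 and 2.11 ± 0.34.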

How the results depend on the processing

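The counts depend on the scale of the ratios. Genes higher in YLK804 numbered 177 with a normexp offset of 10, 252 with the deposited Agilent ratios, 242 in the Cy5 channel alone, 275 at 1.5-fold and 52 at 4-fold. Genes higher in YLK806 numbered 363 with the Agilent ratios, 550 at 1.5-fold and 46 at 4-fold. Leaving out genes whose Cy3 channel differed more, chosen after the data were seen, left 108 and 223 and moved 5 list counts by at most 2 genes. Parental 2-fold genes also past 2-fold numbered 489 with the Agilent ratios and 253 to 275 when 1 parental array was left out. The parental set changes with the setting, and 489 exceeds the 334 genes of the main one. These counts therefore do not give the share kept. Leaving out 1 parental array gave 1486 to 1706 genes higher in BY4716 and 1670 to 1922 higher in RM11-1a. Same-numbered parental arrays did not deviate together (r = -0.209, 0.137 and -0.176), and a replicate block gave 1613 and 1787. The share past 2-fold was 11.7% for the outermost 20 genes of each end, an alternative added later. Distance in kb, planned, was not run because the files name no build. Of 130 named genes past 2-fold, all kept 2-fold with offset 10, the Agilent ratios and median centring, 126 with scaling and 119 in the Cy5 channel alone, where COX5A reversed to 1.06 and YGP1 to 1.56. The causes were not tested. The 2 medians past 2-fold, oxidative phosphorylation and environmental stress, stayed past it under all 5 normalizations. List medians are given where they moved beyond the spread between parental arrays. With a normexp offset of 10 they moved to 0.39 (pheromone response and haploid genes), -0.54 (mitochondrial translation and assembly), -0.29 (galactose and maltose), -0.47 (oxidative stress defence), 0.43 (phosphate regulon), 0.25 (nitrogen catabolite and allantoin), -0.087 (thiamine and pyridoxine), 0.93 (daughter cell separation), 0.40 (flocculins), 0.28 (subtelomeric COS family). With the deposited Agilent ratios they moved to -0.21 (MATalpha genes), 0.47 (pheromone response and haploid genes), -0.52 (mitochondrial genome), -0.61 (mitochondrial translation and assembly), -0.36 (mitochondrial carriers), -0.26 (hexose transport and sensing), -0.83 (galactose and maltose), -1.55 (environmental stress), -0.47 (oxidative stress defence), 0.47 (phosphate regulon), 0.30 (nitrogen catabolite and allantoin), 0.98 (daughter cell separation), 0.48 (flocculins), 0.32 (subtelomeric COS family). With median centring in place of loess they moved to -0.25 (hexose transport and sensing), -0.29 (galactose and maltose), -0.44 (oxidative stress defence), 0.21 (ribosome biogenesis and Pol I), 0.13 (nitrogen catabolite and allantoin), 0.35 (purine synthesis), -0.089 (thiamine and pyridoxine), 0.10 (subtelomeric COS family). With scaling between arrays they moved to 0.34 (MATa genes), 0.53 (MATalpha genes), -1.23 (oxidative phosphorylation), -0.23 (TCA cycle), 0.32 (glyoxylate and gluconeogenesis), -0.16 (mitochondrial carriers), -0.028 (galactose and maltose), -0.58 (pentose phosphate), 0.16 (amino acid and nitrogen permeases), 0.23 (nitrogen catabolite and allantoin), -0.009 (thiamine and pyridoxine), 0.14 (sodium potassium and drug efflux). In the Cy5 channel alone they moved to 0.51 (MATa genes), -0.23 (MATalpha genes), -0.53 (mitochondrial genome), -0.22 (mitochondrial carriers), -0.0013 (glycolysis and fermentation), -0.56 (glycerol), -0.27 (galactose and maltose), -0.36 (pentose phosphate), -0.18 (heat shock proteins and chaperones), 0.47 (phosphate regulon), -0.12 (anaerobic cell wall and PAU), -0.054 (proteasome), 0.091 (sulfur and methionine), 0.10 (histidine synthesis), 0.28 (nitrogen catabolite and allantoin), 0.85 (daughter cell separation), 0.15 (subtelomeric COS family), 0.12 (variable copy loci), 0.021 (histones and S phase).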
